A study of Drosophila melanogaster with 8 samples.

Results

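Small nuclear RNAs (snRNAs) are the short noncoding RNAs at the core of the particles that splice pre-mRNA. The genes described here are all symbols that begin with snRNA: in the deposited gene tables, 31 of 15141 symbols, and the rule uses names only, not measured values. They fall into 11 classes named after their RNA, with 5 copies of U1, 6 of U2, 7 of U5, 3 each of U4 and U6, 2 of U4atac, and 1 each of U3, U7, U11, U12 and U6atac.

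RNA came from heads of late Drosophila melanogaster pupae collected 73 to 90 h after the puparium formed; each library pooled 150 heads and was sequenced after removal of ribosomal RNA. The subject is TDP-43, a nuclear protein that binds RNA and is found in the aggregates of human motor neuron disease; its fly gene is TBPH. There were 8 libraries in 4 groups of 2. The deficiency genotype carried the deletion allele dTDP-43Δ142 over the chromosomal deficiency Df(2R)106, and the 2-deletion genotype carried dTDP-43Δ23 over dTDP-43Δ142; together they form the 4 loss-of-function libraries. The act5c>dTDP-43 group is labelled gain of function; by that label, an actin 5C driver, active in most cell types, expresses fly TDP-43. The wild-type libraries are titled Canton S, w1118, while their genotype field reads w1118. The series' design text calls the libraries biological replicates, but does not say whether separate crosses gave them, so the p-values cover only how these libraries spread, which may be technical. Because whole heads were pooled, fewer cells of a type and less RNA per cell cannot be told apart.

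Total counts ran from 716027 to 1302855 per library. TBPH did not check the labels cleanly. Levels are in CPM, which are counts scaled to the normalised library total. TBPH was at 53.4 ± 5.23 CPM (SD, n = 2) in wild type and 41.1 ± 7.87 (n = 4) in loss of function. It was at 47.0 ± 11.5 (n = 2) in the libraries labelled gain of function, where no rise was seen. Head tissue was represented by 3 of 5 neuronal, 4 of 5 glial and 5 of 5 photoreceptor markers, all above 0 in every library. Muscle markers (5 of 5) and fat body markers (4 of 5, with Lsp2 at 0 in a library) were also present. The other listed markers, nSyb, Syt1, alrm and apolpp, were not found among the symbols counted, so they were not measured here.

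As background, U1 pairs with the 5′ splice site and U2 with the branch point, and U4 delivers U6 to the spliceosome in base-paired form, within a tri-snRNP that also holds U5. U11, U12, U4atac and U6atac play the corresponding roles in the minor spliceosome, which removes a rare class of introns and shares U5. U7 acts outside splicing, in forming the 3′ ends of histone mRNAs, and U3 is a nucleolar RNA of ribosomal RNA processing. In human cells and in tissue from people with motor neuron disease, TDP-43 has been studied in connection with snRNA levels and with the nuclear bodies of the SMN complex, which assembles snRNPs.

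U4 made up nearly all of the snRNA signal. Of 35178 counts assigned to the 31 genes, 33758 (96.0%) were U4, followed by 370 for U6atac, 251 for U12, 234 for U7, 227 for U5 and 152 for U11. U2 had 92 counts, U1 68, U4atac 23 and U6 3, and U3 had none. These are shares of assigned counts, not abundances of RNA: the copies are near-identical, and no source used here says how multiply matching reads were counted. In the same tables, 96 5S ribosomal RNA symbols and 22 mitochondrial tRNA symbols held no count at all, while 223 of 249 snoRNA symbols and 202 of 297 tRNA symbols did.

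Counts were found for 26 of the 31 genes. The other 5, snRNA:U1:95Ca, snRNA:U2:34ABc, snRNA:U2:38ABa, snRNA:U3:22A and snRNA:U6:96Aa, were at 0 in every library. Scaled to the library total before normalisation, 3 counts correspond to 2.30 to 4.19 CPM. The low filter kept 9 copies for testing: both main U4 genes, snRNA:U2:38ABb, snRNA:U5:23D, snRNA:U5:63BC and the single genes of U7, U11, U12 and U6atac. By class sums, 8 classes were tested, and U3, U4atac and U6 were not.

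No snRNA class and no single copy passed an adjusted p of 0.05 in any of the 6 comparisons between groups by edgeR's quasi-likelihood test, adjusted over all features. Over the same features, the percentage called was 2.19 in loss of function against wild type, 1.68 in deficiency heads, 0.832 in 2-deletion heads and 3.11 in the libraries labelled gain of function. Between the loss genotypes the percentage was 0, as between loss of function and the libraries labelled gain of function (0). At an unadjusted p under 0.05, 0 of 8 classes passed in loss of function and in deficiency heads, and 0 in loss of function against the libraries labelled gain of function. In each of the other 3 comparisons 1 class did; of single copies, 1 did in the libraries labelled gain of function and 0 elsewhere. Over all genes tested, the share at an unadjusted p under 0.05 was 20% in loss of function, 17.5% in deficiency heads, 15.8% in 2-deletion heads, 19.5% in the libraries labelled gain of function, 9.39% between the loss genotypes and 5.48% between loss of function and the libraries labelled gain of function. The members passed no more often than that, except for 1 of 8 classes between the loss genotypes. Limma-voom called no class or copy. DESeq2 called no class, and a single copy in the libraries labelled gain of function, given below.

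U4, the RNA that chaperones U6, had its highest level in a wild-type library and its lowest in a deficiency library. It was at 5423 and 8534 CPM in wild type, 5572 and 1963 in deficiency heads, 4027 and 4039 in 2-deletion heads, and 3516 and 2248 in the libraries labelled gain of function. The libraries of the 2-deletion genotype and those labelled gain of function all lay below both wild-type libraries. The first deficiency library lay between the wild-type values. How many of all genes tested separate from wild type in a single group was not counted, so such placements are descriptions, here and below. Group means were 6979 ± 2199 CPM in wild type, 3767 ± 2552 in deficiency heads, 4033 ± 8.48 in 2-deletion heads and 2882 ± 896 in the libraries labelled gain of function (SD, n = 2 each). The log2 fold of U4 against wild type was -0.84 ± 0.40 (SE; edgeR adjusted p = 0.299) in loss of function, and -1.28 ± 0.48 in the libraries labelled gain of function (unadjusted p = 0.0313, edgeR adjusted p = 0.204). The 95% intervals on the log2 scale ran from -1.78 to 0.10 and from -2.40 to -0.15. In the loss genotypes taken singly, the U4 log2 fold was -0.89 (edgeR adjusted p = 0.400) for the deficiency and -0.79 (edgeR adjusted p = 0.472) for the 2 deletions.

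The spread between replicates of U4 was unequal. The higher deficiency library had 2.84 times the U4 level of the lower one, and among the 2165 features tested with a mean of at least 100 CPM, 1.94% had a larger ratio between those libraries. In wild type the U4 ratio was 1.57, exceeded by 5.36% of these features, in the libraries labelled gain of function 1.56, exceeded by 17.7%, and in 2-deletion heads 1.003. Without the first deficiency library, U4 had a log2 fold of -1.30 in loss of function (edgeR adjusted p = 0.0270) and -1.81 in deficiency heads (edgeR adjusted p = 0.0355), with 156 and 82 features called in all. Without the second wild-type library the log2 fold in loss of function was -0.46, and without the second deficiency library that in deficiency heads was -0.30, neither of them called.

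The main U4 genes ordered the libraries much as the class did. snRNA:U4:39B held 82.5% of U4 counts and snRNA:U4:38AB 17.5%, with snRNA:U4:25F at 0.0741%, or 25 counts in all. snRNA:U4:39B was at 4544 and 6690 CPM in wild type, 4604 and 1585 in deficiency heads, 3458 and 3345 in 2-deletion heads, and 2885 and 1894 in the libraries labelled gain of function. snRNA:U4:38AB was at 877 and 1840 CPM in wild type, 960 and 374 in deficiency heads, 568 and 692 in 2-deletion heads, and 629 and 351 in the libraries labelled gain of function. As for the class, the first deficiency library of each copy lay between the wild-type values and the other 5 libraries lay below them. For snRNA:U4:39B the log2 fold was -0.79 ± 0.40 (SE; edgeR adjusted p = 0.323) in loss of function and -1.23 ± 0.48 (edgeR adjusted p = 0.214) in the libraries labelled gain of function. For snRNA:U4:38AB it was -1.07 ± 0.49 (edgeR adjusted p = 0.303) and -1.47 ± 0.59 (edgeR adjusted p = 0.257), and DESeq2 called the latter (log2 fold -1.47, DESeq2 adjusted p = 0.0365).

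**Figure D1:**
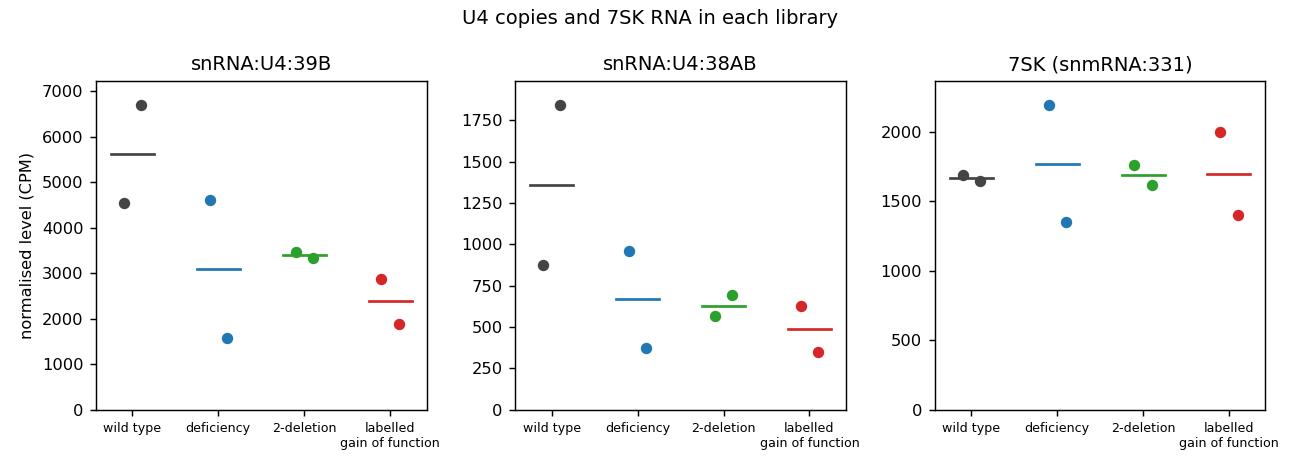
Normalised level (CPM) of the main U4 genes and of 7SK RNA in each library; points are libraries and lines are means of 2. Of both U4 genes, the highest point is a wild-type library, and in deficiency heads the replicates lie far apart; 7SK RNA lies between 1348 and 2191 CPM with no separation of the groups.

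The balance between the U4 genes varied within wild type. snRNA:U4:38AB took 16.2% (95% Clopper-Pearson interval 15.1 to 17.3) and 21.6% (20.5 to 22.6) of U4 counts in the wild-type libraries. It took 17.2% and 19.0% in deficiency heads, 14.1% and 17.1% in 2-deletion heads, and 17.9% and 15.6% in the libraries labelled gain of function. The wild-type intervals did not overlap, and 4 of the other 6 values lay between the wild-type shares; intervals cover counting error only.

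As a share of all counts, snRNA genes took 0.557% and 0.855% in wild type, 0.559% and 0.209% in deficiency heads, 0.421% and 0.415% in 2-deletion heads, and 0.375% and 0.234% in the libraries labelled gain of function. Their share of small RNA counts (snRNA, snoRNA, tRNA and similar genes) separated wild type from the rest. It was 5.32% and 7.24% in wild type, 3.57% and 1.87% in deficiency heads, 3.14% and 3.001% in 2-deletion heads, and 2.81% and 1.62% in the libraries labelled gain of function. The denominator moved as well: small RNA genes took 10.5% and 11.8% of each wild-type total and 11.2% to 15.7% of the other 6, most of it snoRNA. No test was made of these shares. Without U4, the snRNA genes held 150 to 253 counts per library, or 0.0138% to 0.0211% of all counts, with 0.0173% and 0.0209% in wild type.

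**Figure D2:**
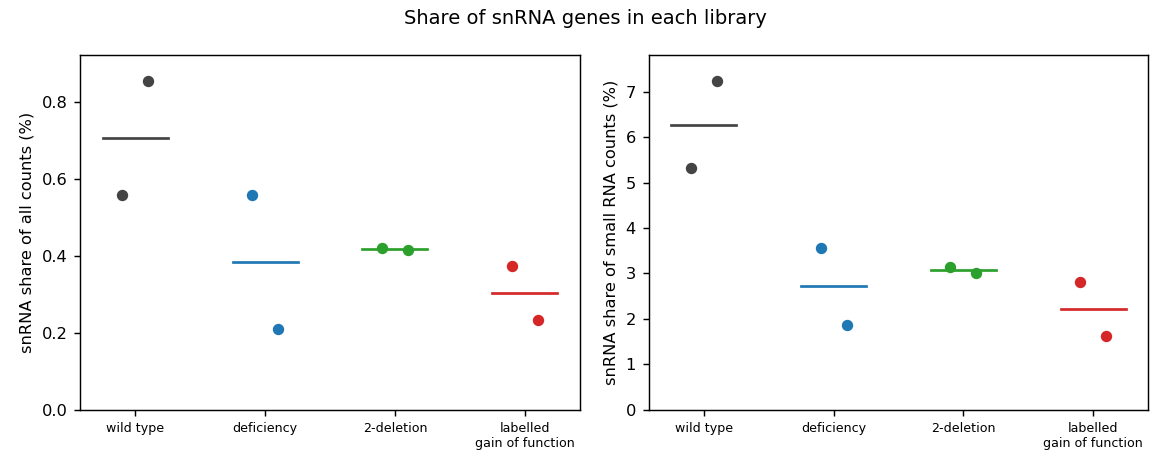
Share of snRNA genes in all counts (left) and in the counts of small RNA genes (right), in percent, per library; points are libraries and lines are means of 2. In the right panel both wild-type libraries (5.32% and 7.24%) lie above the other 6, the highest of which is 3.57%.

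When libraries were scaled by the other small RNA genes in place of all genes, the median log2 fold of all genes shifted by -0.37 in loss of function and by -0.29 in the libraries labelled gain of function. U4 was then called, at -1.26 (edgeR adjusted p = 0.00394) and -1.53 (edgeR adjusted p = 0.00570), when 1094 and 648 of 9251 features were called. Relative to the shift, these folds were -0.89 and -1.24, close to the values with the usual scaling.

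Cell type markers differed between the groups too. The 5 muscle markers summed to 9314 and 14359 CPM in wild type, 5516 and 7864 in deficiency heads, 3664 and 3788 in 2-deletion heads, and 1317 and 3394 in the libraries labelled gain of function, so that both wild-type libraries lay above all others. The 5 photoreceptor markers summed to 1062 and 827 CPM in wild type, 514 and 963 in deficiency heads, 383 and 403 in 2-deletion heads, and 211 and 387 in the libraries labelled gain of function. Fat body markers summed to 12247 and 14010 CPM in wild type and to 12228 to 29672 elsewhere, neuronal markers ranged from 241 to 387 and glial markers from 405 to 507. Their part in the U4 values was not tested.

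Outside the rule, the 7SK RNA, which holds the transcription elongation factor P-TEFb inactive, appears in these tables under an older small-RNA symbol and gives a comparison with another abundant noncoding RNA, at a lower CPM than U4. It was at 1687 and 1647 CPM in wild type, 2191 and 1348 in deficiency heads, 1764 and 1615 in 2-deletion heads, and 1996 and 1400 in the libraries labelled gain of function. Its log2 fold against wild type was 0.05 ± 0.22 (SE; 95% interval -0.43 to 0.53) in loss of function and 0.03 ± 0.25 (-0.53 to 0.58) in the libraries labelled gain of function, with no call by edgeR.

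Of the other major spliceosomal classes, U1, which recognises the 5′ splice site, was lowest in 2-deletion heads. Its summed level was 12.7 and 11.4 CPM in wild type, 10.9 and 8.80 in deficiency heads, 5.98 and 4.65 in 2-deletion heads, and 7.30 and 9.25 in the libraries labelled gain of function. All 6 libraries outside wild type lay below both wild-type libraries, the nearest by less than 1 count's worth of CPM. U1 had 6 to 11 counts per library. The log2 fold was -0.74 ± 0.45 (SE; edgeR adjusted p = 0.396) in loss of function and -0.55 ± 0.51 (edgeR adjusted p = 0.598) in the libraries labelled gain of function. In the 2-deletion genotype alone it was -1.18 (unadjusted p = 0.0485, edgeR adjusted p = 0.313), and in deficiency heads -0.30 (edgeR adjusted p = 0.820). snRNA:U1:82Eb held 69.1% of U1 counts, with 9 and 5 counts in wild type, 7 and 5 in deficiency heads, 2 and 5 in 2-deletion heads and 7 and 7 in the libraries labelled gain of function. snRNA:U1:95Cc held 27.9%, with 2 and 3, 2 and 3, 4 and 1, and 1 and 3 counts in the same order. At such counts no shift between U1 copies was detectable. snRNA:U1:21D and snRNA:U1:95Cb had 1 count each.

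U2, which pairs with the branch point, lay on opposite sides of wild type in the loss genotypes, without passing the test. It was at 11.6 and 12.9 CPM in wild type, 19.3 and 13.2 in deficiency heads, 7.69 and 5.42 in 2-deletion heads, and 17.0 and 7.40 in the libraries labelled gain of function. Both deficiency libraries lay above wild type, the nearer by less than a single count's worth of CPM, and both 2-deletion libraries below it. These groups had 7 to 16 counts per library. The log2 fold between the loss genotypes was 1.29 ± 0.53 (SE; unadjusted p = 0.0316, edgeR adjusted p = 0.484), which does not pass the threshold. Against wild type it was 0.41 (edgeR adjusted p = 0.751) and -0.89 (edgeR adjusted p = 0.475) in these genotypes, -0.24 ± 0.47 over all loss of function and 0.02 ± 0.52 in the libraries labelled gain of function. snRNA:U2:38ABb held 69.6% of U2 counts, with 4 and 6 counts in wild type, 8 and 10 in deficiency heads, 6 and 5 in 2-deletion heads, and 17 and 8 in the libraries labelled gain of function. snRNA:U2:34ABb (16.3%) had 0 to 3 counts per library, snRNA:U2:14B (11.96%) 0 to 4, and snRNA:U2:34ABa 2 in all.

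U5, which holds the exons together in both spliceosomes, was at 34.7 and 27.1 CPM in wild type, 37.4 and 29.7 in deficiency heads, 26.5 and 23.2 in 2-deletion heads, and 26.8 and 24.1 in the libraries labelled gain of function. The 2-deletion libraries and those labelled gain of function lay below both wild-type libraries, and the deficiency libraries overlapped them. The log2 fold was -0.11 ± 0.28 (SE; 95% interval -0.72 to 0.50) in loss of function and -0.29 ± 0.32 (-0.99 to 0.41) in the libraries labelled gain of function. snRNA:U5:63BC held 44.9% of U5 counts, with 16 and 7 counts in wild type, 13 and 11 in deficiency heads, 12 and 13 in 2-deletion heads, and 14 and 16 in the libraries labelled gain of function. snRNA:U5:23D held 38.8%, with 7 and 6, 11 and 14, 16 and 13, and 11 and 10 counts in the same order. The remaining copies were snRNA:U5:34A with 19 counts, snRNA:U5:14B with 8, snRNA:U5:38ABa with 7, snRNA:U5:35D with 2 and snRNA:U5:38ABb with 1.

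U6, the catalytic RNA that U4 escorts, was nearly uncounted. snRNA:U6:96Ab had 2 counts and snRNA:U6:96Ac 1, in a 2-deletion library and a wild-type library, so no statement about U6 could be made at this depth and no U4 to U6 ratio was formed.

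**Figure D3:**
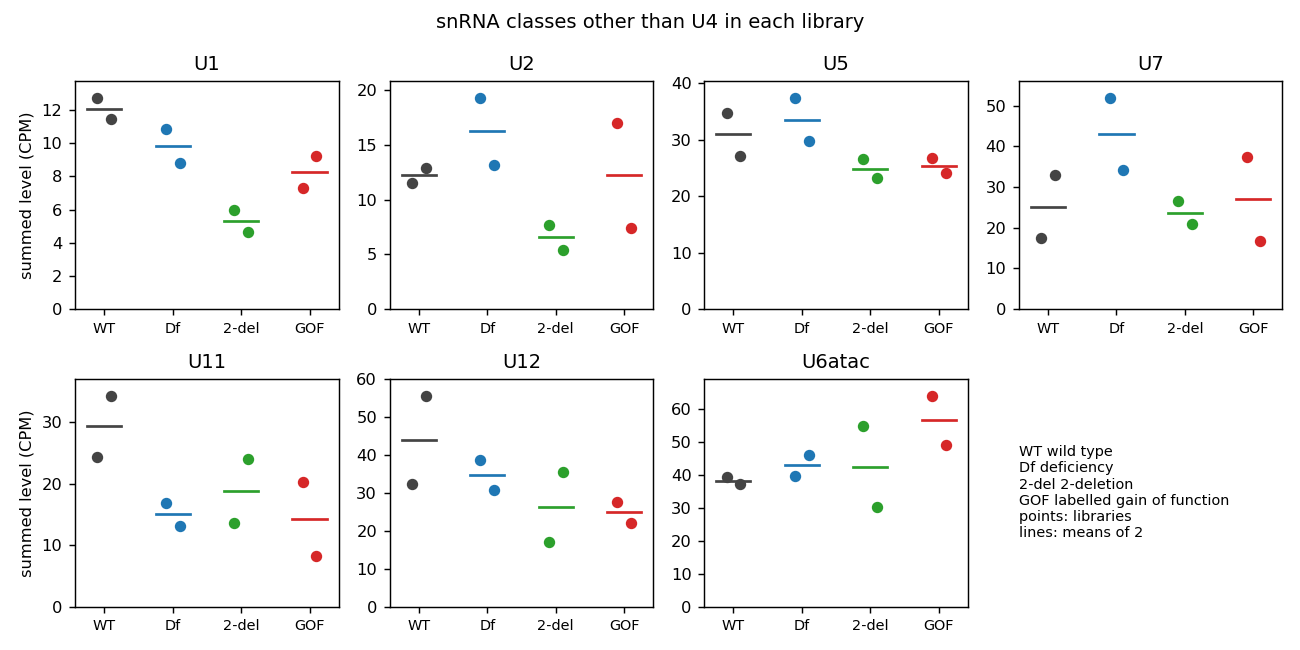
Summed normalised level (CPM) of 7 snRNA classes in each library; points are libraries and lines are means of 2. U1 and U11 are the classes in which both wild-type points lie above all 6 others; in U2, U6atac, U7 and U12 some replicates lie as far apart as the groups.

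In the minor spliceosome, U11, the counterpart of U1, was at 24.3 and 34.3 CPM in wild type, 16.9 and 13.2 in deficiency heads, 13.7 and 24.0 in 2-deletion heads, and 20.3 and 8.33 in the libraries labelled gain of function. All 6 lay below both wild-type libraries, the nearest by less than 1 count's worth of CPM. The log2 fold was -0.78 ± 0.40 (SE; edgeR adjusted p = 0.306) in loss of function and -0.996 ± 0.47 (edgeR adjusted p = 0.269) in the libraries labelled gain of function. The latter was -1.78 without their first library and -0.51 without their second, and was called in neither case. U11 and U1 were thus 2 of 8 classes in which all 6 libraries lay below wild type, beside 12.5% of all genes tested, and 0 of 8 lay above, beside 11.7%.

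U12, the counterpart of U2, was at 32.4 and 55.7 CPM in wild type, 38.6 and 30.8 in deficiency heads, 17.1 and 35.6 in 2-deletion heads, and 27.6 and 22.2 in the libraries labelled gain of function. The loss genotypes overlapped wild type and the libraries labelled gain of function lay below it. The log2 fold was -0.52 ± 0.34 (SE; edgeR adjusted p = 0.430) in loss of function and -0.80 ± 0.40 (edgeR adjusted p = 0.296) in the libraries labelled gain of function.

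U6atac, the counterpart of U6, differed from U11 and U12 in the sign of its fold. It was at 39.3 and 37.1 CPM in wild type, 39.8 and 46.2 in deficiency heads, 54.7 and 30.2 in 2-deletion heads, and 64.0 and 49.0 in the libraries labelled gain of function. Its log2 fold was 0.16 ± 0.29 (SE; edgeR adjusted p = 0.816) in loss of function and 0.56 ± 0.32 (edgeR adjusted p = 0.366) in the libraries labelled gain of function. U4atac, the counterpart of U4, had 1 and 1 counts in wild type, 3 and 0 in deficiency heads, 3 and 4 in 2-deletion heads, and 6 and 5 in the libraries labelled gain of function. From the pooled counts, the ratio of the libraries labelled gain of function to wild type was 3.74 (95% exact counting interval 0.816 to 34.7) and that of loss of function 1.86 (0.397 to 17.5). snRNA:U4atac:83A gave 17 of the 23 counts and snRNA:U4atac:82E the other 6.

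U7, the histone pre-mRNA RNA, was at 17.3 and 32.9 CPM in wild type, 51.9 and 34.1 in deficiency heads, 26.5 and 20.9 in 2-deletion heads, and 37.3 and 16.7 in the libraries labelled gain of function. Both deficiency libraries lay above wild type and the other groups overlapped it. The log2 fold was 0.37 ± 0.40 (SE; edgeR adjusted p = 0.662) in loss of function, 0.79 (edgeR adjusted p = 0.399) in deficiency heads, -0.06 (edgeR adjusted p = 0.963) in 2-deletion heads and 0.14 ± 0.46 (edgeR adjusted p = 0.895) in the libraries labelled gain of function. Between the loss genotypes it was 0.85 (edgeR adjusted p = 0.574).

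**Figure D4:**
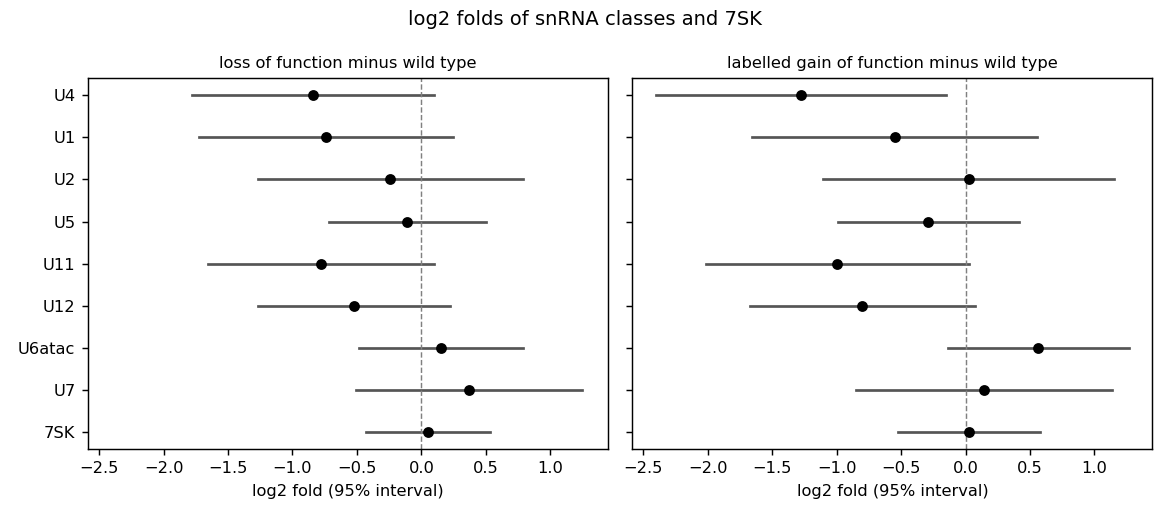
Log2 fold against wild type with its 95% interval for 8 snRNA classes and 7SK RNA, in loss of function (left) and in the libraries labelled gain of function (right). Only the interval of U4 in the right panel (-2.40 to -0.15) lies wholly below 0, and no fold passed the threshold after adjustment over all features.

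Several snRNA genes lie within other genes in a later annotation of the fly genome (Release 6), and reads of overlapping genes may have been shared or lost, since no source used here gives the strand setting of the counting. snRNA:U4:39B lies in Atg18b (CG8678 in the files), a gene of autophagy, and snRNA:U4:38AB in sick, whose log2 folds in loss of function were 0.19 and -0.03. U7 lies in Eip63E, a cyclin-dependent kinase gene, and U11 and U12 lie opposite Fie and Baldspot. The host folds were 0.24, 0.12 and 0.04, none of them called. snRNA:U2:38ABb also lies in sick, on the same strand. snRNA:U1:95Cb and snRNA:U1:95Cc lie in CG34355, on the same strand. The log2 fold of CG34355 in loss of function was -0.63 ± 0.23 (SE, edgeR adjusted p = 0.152). Its part in the U1 values was not tested. snRNA:U5:23D lies in FASN2 (v(2)k05816 in the files), a fatty acid synthase gene, on the same strand. v(2)k05816 was at 68.3 and 104 CPM in wild type, 28.6 to 49.4 in loss of function, and 23.5 and 31.4 in the libraries labelled gain of function. The gene fell, with a log2 fold of -1.18 ± 0.27 (SE; edgeR adjusted p = 0.0489) in loss of function and -1.64 ± 0.33 (edgeR adjusted p = 0.0257) in the libraries labelled gain of function. Both wild-type libraries lay above all others. The snRNA:U5:23D copy within it was at 8.10 and 8.57 CPM in wild type and 10.1 to 15.4 in loss of function. The act5c>dTDP-43 group had 8.92 and 9.25 CPM, close to wild type. The log2 folds of this copy were 0.64 ± 0.43 (SE; edgeR adjusted p = 0.447) and 0.12 ± 0.50 (edgeR adjusted p = 0.921), neither of them called. The call of v(2)k05816 in loss of function was not held by DESeq2 (adjusted p = 0.0825) or limma-voom (adjusted p = 0.0701). In both comparisons the call was also lost in some of the fits that left out a single library.

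Proteins that bind, make and assemble snRNAs were taken from 10 lists with 89 members, of which 84 had a symbol in the files and 70 were tested. None was called by edgeR in any comparison. At an unadjusted p under 0.05, 3 were higher and 1 lower in loss of function, and 7 were higher and 0 lower in the libraries labelled gain of function. Both are smaller shares of the 70 than the 20% and 19.5% of all genes tested. The median log2 fold of the 70 was 0.14 in loss of function and 0.20 in the libraries labelled gain of function, beside 0.00 and 0.01 over all genes tested.

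Among proteins of the spliceosomal particles, the 3 tested of U1 had a median log2 fold of 0.32 in loss of function, with snf, a protein of both U1 and U2 in flies, at 0.32 ± 0.32 (SE) and at 0.37 ± 0.36 in the libraries labelled gain of function, where the median of the 3 was -0.029. Of 11 for U2, Spx, a subunit of SF3b, was at 8.10 and 25.7 CPM in wild type, 4.82 and 2.20 in deficiency heads, and 14.5 and 14.7 in 2-deletion heads. Its deficiency libraries lay below wild type and its 2-deletion libraries between the wild-type values. The edgeR adjusted p was 0.246 for loss of function together, and 0.136 and 0.909 for the genotypes taken singly. CG2807 (Sf3b1), the largest SF3b subunit, was at 63.8 ± 14.9 CPM in wild type and 108 ± 29.1 in the libraries labelled gain of function (SD, n = 2 each; edgeR adjusted p = 0.150). Of the 6 tested Sm proteins, which form the ring around most snRNAs, 4 had a negative fold in loss of function, the median being -0.22. The Sm members with the smallest p were CG18591 (SmE) in loss of function, at -0.71 ± 0.40, and DebB (SmF) in the libraries labelled gain of function, at -1.16 ± 0.64. CG31184 (Lsm3), of the ring that binds U6, was at 0.59 ± 0.46 and 0.89 ± 0.50. Of 11 proteins of the tri-snRNP, CG6841 (Prp6), which bridges U5 with U4/U6, averaged 49.5 ± 6.52 CPM over the loss genotypes (SD, n = 4), 52.8 ± 15.9 in the libraries labelled gain of function and 28.8 ± 9.71 in wild type (n = 2 each), with edgeR adjusted p = 0.175 and 0.166.

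Among proteins that make and assemble snRNAs, CG2702 (Pbp95), a subunit of the complex that activates snRNA promoters, had a log2 fold of 0.56 ± 0.26 (SE) in loss of function. Brf, a subunit of the RNA polymerase III initiation factor, was at 0.40 ± 0.33 in the libraries labelled gain of function. Of 13 Integrator subunits, which cleave the 3′ end of new snRNAs, 10 had a positive fold in loss of function and 10 in the libraries labelled gain of function. The members with the smallest p were CG5859 (IntS8), at -0.62 ± 0.30 in loss of function, and omd (IntS5), at 0.71 ± 0.32 in the libraries labelled gain of function. Dhh1 (Gem3), the DEAD-box helicase of the SMN complex, had the smallest p of all 70 members in loss of function. Its level averaged 41.7 ± 3.69 CPM over the loss genotypes (SD, n = 4), 38.8 ± 1.29 in the libraries labelled gain of function and 21.0 ± 1.40 in wild type (n = 2 each). The log2 fold was 0.98 ± 0.27 (SE; edgeR adjusted p = 0.0822) and 0.88 ± 0.31 (edgeR adjusted p = 0.140), neither past the threshold. Fitting only the groups compared gave an edgeR adjusted p of 0.0499 for Dhh1 in loss of function. Of the 4 tested proteins of the 7SK particle and P-TEFb, CG3508 (HEXIM), the inhibitor of P-TEFb, was at 0.58 ± 0.31 in loss of function, and CycT, its cyclin, at 0.51 ± 0.20 in the libraries labelled gain of function (edgeR adjusted p = 0.179). CG34415 (mute), of the histone locus, was at 0.38 ± 0.24 and 0.57 ± 0.26 (edgeR adjusted p = 0.408 and 0.255).

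**Figure D5:**
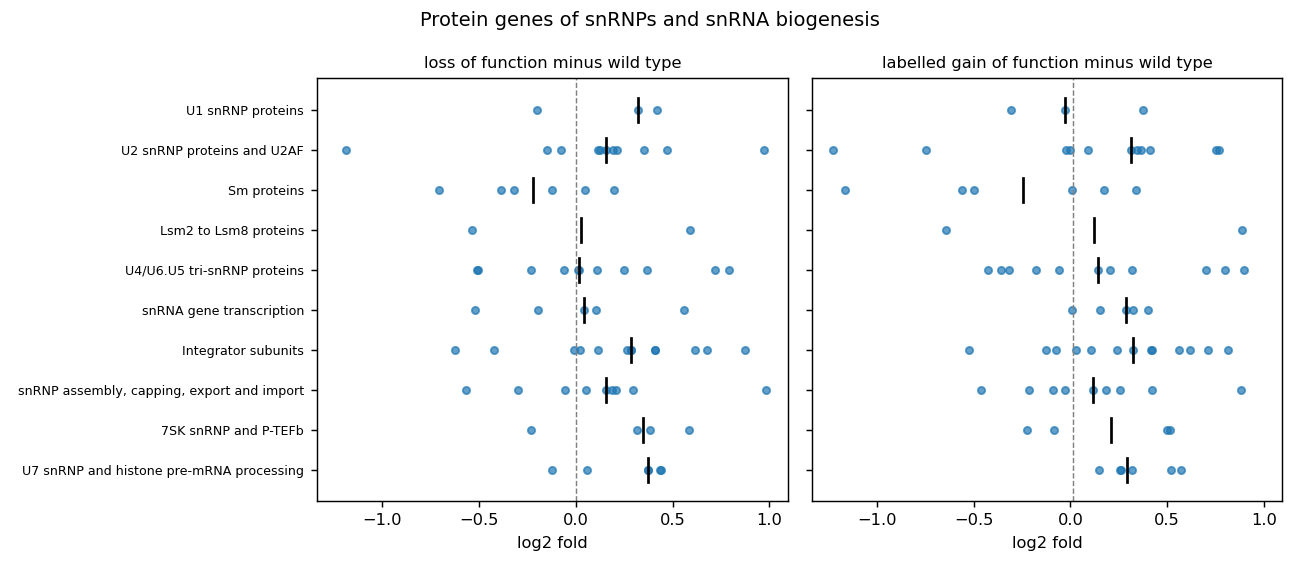
Log2 folds against wild type of the tested protein genes in each list, in loss of function (left) and in the libraries labelled gain of function (right); points are genes, black bars list medians and the dashed line the median of all genes tested. No point passed the threshold; the Sm proteins have medians of -0.22 and -0.25, while the Integrator subunits have medians of 0.28 and 0.32.

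Across the 8 libraries, U4 and U11 had a Pearson correlation of log2 CPM of 0.81 and U4 and 7SK RNA one of 0.57. U4 correlated at 0.92 with the RNA of RNase MRP and at -0.82 with RNaseP:RNA. The genes most like U1 among 9251 features compared were CG4288 (0.976), 5SrRNA-Psi:CR33371 (0.965) and CG30116 (0.950), those most like U2 were RpL40 (0.992), Pcmt (0.957) and CG10211 (0.947), and those most like U4 were CG33156 (0.986), CG32354 (0.982) and Tie (0.980). All are descriptions over libraries that share group differences, and with 8 points and this many features, high values arise in any ranking.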

How the data were processed

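The authors deposited 1 table of read counts per gene for each library. These whole-number counts come from HTSeq and the dm3 build, per the submitters' processing notes. For the aligner, versions, annotation, strandedness and handling of multiply matching reads: not given in the sources used here. No row without a gene name entered a library size. Of the 31 members, 29 matched a Release 6 gene table, which was used only for names and overlaps.

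Copies were summed per class, because near-identical copies may share reads. R 4.3.3 with edgeR 4.0.16 kept features by filterByExpr (minimum count 10, minimum total 15), scaled by TMM and fitted 4 group means to all 8 libraries, with 4 residual degrees of freedom and a common biological coefficient of variation of 20.7%. Robust quasi-likelihood p-values were adjusted by Benjamini-Hochberg over 9252 genes (or 9251 features with class sums), with a threshold of 0.05. CPM use TMM library sizes, with a prior count of 2 on the log2 scale. Shares have 95% Clopper-Pearson intervals. DESeq2 1.42.0 and limma 3.58.1 were alternatives, beside other scalings, filters, a replicate block and single libraries left out.

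Every class and every copy with a count was named, with values per library for classes and for copies with at least 10% of their class. Of each protein list, called members and the smallest p in loss and in gain of function against wild type were named. Likeness was to be given for U1, U2 and U6; U6 was not tested, and U4, 7SK RNA, the overlapping genes and the RNase RNAs were added after their values were seen. The members and lists were chosen with earlier results of these data known. Promoter sequences were not used here.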

Additional observations from a re-analysis of the deposited data

How the results depend on the processing

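No class, copy or listed protein gene was called against wild type, and these counts moved from 0 to at most 2. With scaling by other small RNA genes, 1 class and 2 copies were called in loss of function, in the deficiency genotype and in the libraries labelled gain of function, 1 copy in the 2-deletion genotype, and 1 listed protein gene in the deficiency genotype (Spx, log2 fold -2.63, adjusted p = 0.0154). With only the groups compared, 1 class and 1 copy were called in the 2-deletion genotype (U4, log2 fold -0.79, adjusted p = 0.0363) and 1 protein gene in loss of function (Dhh1); over all features, 698 and 661 were then called, against 77 and 203 with all groups in the fit. DESeq2 called 1 copy in the libraries labelled gain of function, and 232 genes in all. With single libraries left out, the classes, the copies and the protein genes called ranged from 0 to 1 in loss of function and in the libraries labelled gain of function, and the classes and copies from 0 to 1 in the deficiency genotype. The protein genes were Dhh1 in loss of function without gain-of-function replicate 1 (adjusted p = 0.0488) and CG2807 in the libraries labelled gain of function without their replicate 2 (adjusted p = 0.0368), when 693 and 657 features were called in all, against 203 and 288. In the libraries labelled gain of function, U4 was called without deficiency replicate 1 (log2 fold -1.26) and without deficiency replicate 2 (-1.28). With all libraries in the fit it was not called. Each of these fits keeps a single deficiency library, so only the fold is given. The deficiency replicates are in neither group compared, but they enter the filter, the scaling and the estimate of spread. The cause of the changes in calls was not tested.

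Small folds changed sign. With scaling by other small RNA genes, those in loss of function became -0.016 for U7, -0.21 for U6atac, -0.34 for 7SK RNA and -0.039 for snf. Those in the libraries labelled gain of function became -0.25 for U2, -0.12 for U7 and -0.25 for 7SK RNA, and that of U2 in the deficiency genotype -0.028. U2 in the libraries labelled gain of function was -0.085 with limma-voom. Over single libraries left out, log2 folds in loss of function ran from -0.25 to 0.10 for U5, -0.036 to 0.88 for U7, -0.079 to 0.35 for U6atac and -0.13 to 0.21 for 7SK RNA. In the libraries labelled gain of function they ran from -0.70 to 0.49 for U2, -0.55 to 0.67 for U7, -0.24 to 0.27 for 7SK RNA, -0.13 to 0.74 for snf and -1.88 to 0.13 for DebB, and for U7 in the 2-deletion genotype from -0.47 to 0.45. The fold of v(2)k05816 stayed between -1.45 and -0.84 in loss of function, with adjusted p from 0.0129 to 0.367, and between -1.91 and -1.29 (0.0110 to 0.221) in the libraries labelled gain of function.

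Same-numbered replicates showed little shared deviation: correlations between groups ran from -0.0413 to 0.172. Each group gives a single difference between replicates, so these values cannot decide whether the numbers mark a shared batch. A replicate block changed no call of a class or copy and turned U2 (-0.014) and 7SK RNA (-0.00096) in the libraries labelled gain of function. With small RNA counts as denominator, mean snRNA shares were 6.28% in wild type, 2.72% in the deficiency genotype, 3.07% in the 2-deletion genotype and 2.22% in the libraries labelled gain of function. With counts of other genes as denominator, the 2-deletion mean was 0.484%. Leaving small RNA genes out of the denominator raises the share in every library, so this rise is not particular to that genotype. Depth leaves U6 (3 counts in all) and U3 (0) with nothing to compare, and limits U4atac, U1 and U2, at 0 to 21 counts per library.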
